A study of Rattus norvegicus with 10 samples.

Results

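The genes described here make, break down and sense prostaglandins in the renal cortex of rats with polycystic kidneys. They are the cyclooxygenases *Ptgs1* and *Ptgs2*, the terminal synthases *Ptges*, *Ptgds* and *Ptgis*, the inactivating dehydrogenase *Hpgd*, and the prostaglandin E receptors *Ptger1*, *Ptger2*, *Ptger3* and *Ptger4*. They were chosen by gene name, and each name matched 1 gene, which gave 10 of the 32545 genes listed. None of the 10 overlaps another listed gene in position, and all 10 passed the filter on low values.

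Cyclooxygenases convert arachidonic acid, freed from membranes by phospholipases, to the unstable prostaglandin H2. Terminal synthases then turn it into prostaglandin E2, prostaglandin D2 or prostacyclin. The dehydrogenase encoded by *Hpgd* takes the first step in the inactivation of prostaglandin E2. In the kidney prostaglandin E2 adjusts blood flow, renin release and the handling of salt and water. Of its receptors, EP1 signals through calcium, EP2 and EP4 raise cyclic AMP, and EP3 mainly lowers it.

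RNA was sequenced from the renal cortex of 10 PCK rats (PCK/CrljCrl-Pkhd1pck/Crl), 5 of each sex, with 1 library per rat and no treatment. PCK rats carry a mutation of *Pkhd1* and model autosomal recessive polycystic kidney disease. Both sexes carry it and no rat of another strain was sequenced, so the values compare sexes within cystic kidneys only. The sources disagree on age, with 12 to 14 weeks in the labels and 10 to 12 weeks in the methods, and the labels name the tissue only as kidney. According to the methods the rats were littermates from 2 litters with different parents, and the litter of each rat was not used here.

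Expression was given as FPKM, fragments per kilobase of gene, a unit that corrects for library size and for gene length and so allows levels of different genes to be set side by side. The deposited values were already on a median-ratio scale, with a factor of 1.01 in every library. Whole reads recovered from the FPKM gave 13912569 to 20285911 reads on genes per library. Female 2 stood apart, with 26.8% of its reads on mitochondrial genes against 14.3% to 19.1% in the others. Its 5 urothelial marker genes summed to 12.8 FPKM, against at most 0.763 FPKM in any other library. In that library Upk2 was at 3.02 FPKM and Upk3a at 4.64 FPKM, and both were listed at 0 in every male. The fold change of each of the 10 genes is therefore also given without female 2. Proximal tubule markers summed to 1262 to 2491 FPKM in males against 1283 to 2601 FPKM in females, and none of these markers was at 0. The medullary markers summed to 73.9 to 178 FPKM over all rats, most of it *Cryab*. In female 2 *Slc14a2* (ENSRNOG00000056021) was at 2.24 FPKM with 92 reads, against at most 0.0665 FPKM in any other library. *Aqp4* was also highest there, at 5.66 FPKM, while the other entries of that list were not.

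The sexes were compared in the following ways. A gene was called different where limma's test on log2(FPKM + 0.1) over 17631 genes gave an adjusted p (Benjamini-Hochberg) no higher than 0.05. Single genes also had a two-sided exact permutation test on their mean FPKM, whose smallest possible p with 5 rats per sex is 0.00794. The ranges of the sexes were then checked for overlap. All fold changes are of females over males, on the log2(FPKM + 0.1) scale, which understates the change of genes at low FPKM.

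*Ptgds*, *Hpgd* and *Ptger3* were called lower in females, and none of the 10 genes was called higher. Over all tested genes 1.14% were called lower and 2.40% in either direction. *Ptgds* and *Hpgd* also passed a log2 fold change of 1 in size, which 1.32% of all genes did together with the adjusted p. The exact permutation p was at most 0.05 for the same 3 of 10 genes, against 14.8% of all genes. These 3 were also the only ones of the 10 whose ranges did not overlap between the sexes, against 5.10% of all genes. The median log2 fold change was −0.58 over the 10 genes, from −1.68 to 0.32, with 8 of 10 below 0, and −0.01 over all tested genes. In bulk tissue, fewer cells of a type and less RNA per cell cannot be told apart, here or in what follows.

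**Figure D1:**
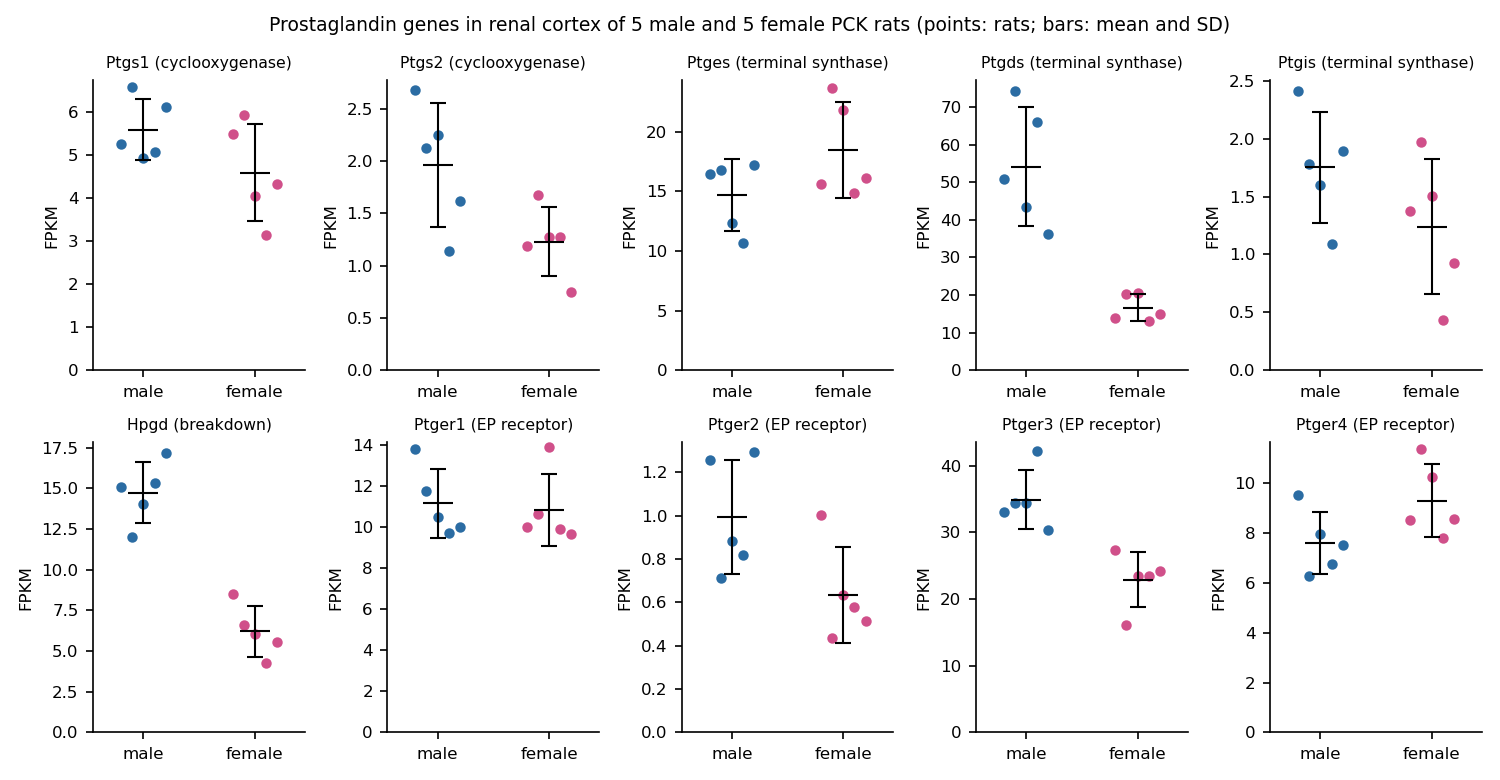
FPKM of the 10 genes in each rat (vertical axis, from 0, scaled per gene) for males and females, with 1 point per rat and bars for the mean and SD over 5 rats. The points of the sexes are separate for *Ptgds*, *Hpgd* and *Ptger3* and overlap for the other 7 genes.

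The 3 genes with separate ranges lie on 3 different chromosomes, and the 250 bases before their start sites are shown because these are the genes called different. Sequences are from RefSeq on GRCr8, a newer build than the Rnor_6.0 used for the expression table, and are printed 5′ to 3′ on the strand of the gene. Capitals mark matches to the motifs searched. The *Ptgds* sequence lies at chr3:28682979-28683228 on the minus strand, the *Hpgd* sequence at chr16:39034832-39035081 on the minus strand and the *Ptger3* sequence at chr2:249264832-249265081 on the plus strand.
Ptgds: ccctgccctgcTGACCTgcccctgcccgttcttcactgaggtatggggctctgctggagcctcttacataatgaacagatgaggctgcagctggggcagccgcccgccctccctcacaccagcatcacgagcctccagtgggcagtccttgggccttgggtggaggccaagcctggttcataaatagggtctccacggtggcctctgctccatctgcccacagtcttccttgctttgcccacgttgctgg
Hpgd: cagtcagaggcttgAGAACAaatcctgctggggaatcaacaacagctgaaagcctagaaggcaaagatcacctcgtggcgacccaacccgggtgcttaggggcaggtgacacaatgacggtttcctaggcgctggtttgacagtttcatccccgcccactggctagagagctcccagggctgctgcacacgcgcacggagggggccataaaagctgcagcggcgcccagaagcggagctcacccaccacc
Ptger3: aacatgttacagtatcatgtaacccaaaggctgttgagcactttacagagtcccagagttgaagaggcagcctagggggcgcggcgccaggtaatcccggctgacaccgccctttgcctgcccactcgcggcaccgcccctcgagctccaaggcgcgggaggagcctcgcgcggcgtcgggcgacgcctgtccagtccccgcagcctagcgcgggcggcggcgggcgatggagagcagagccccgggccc

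Of the 10 genes 9 had a promoter in RefSeq's table, and *Ptgis* did not. Both strands were searched for 5 motifs, in the members and in all 33469 promoters of the same length. AGAACA, the half-site of androgen and glucocorticoid receptors, was found in *Hpgd*, at base −236 from the start, and in *Ptges*, at base −214. It is in 17.5% of all promoters. AGGTCA, the half-site of oestrogen receptors, was found on the other strand of *Ptgds*, at base −239, and is in 14.1% of all promoters. The E-box CACGTG was found in *Ptgs2* only, at base −55, and is in 5.59% of all promoters. The TATA box TATAAA (12.9% of all promoters) and the cAMP response element TGACGTCA (1.59%) were found in none of the 9, and *Ptger3* held none of the 5 motifs. G and C made up 62.0% of the *Ptgds* sequence, 60% of the *Hpgd* sequence and 68.4% of the *Ptger3* sequence, against a median of 51.2% over all promoters. Each match describes letters only, and no binding was measured.

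The cyclooxygenases, which start the pathway, were not called different between the sexes. *Ptgs1* (ENSRNOG00000007415, chromosome 3, 15560712 to 15582344 on Rnor_6.0), the form most tissues express steadily, was at 5.25, 6.57, 4.93, 5.08 and 6.12 FPKM in males 1 to 5. In females 1 to 5 it was at 5.49, 5.93, 4.04, 3.15 and 4.33 FPKM. Females 3, 4 and 5 were below every male, while females 1 and 2 lay among the males. The means were 5.59 ± 0.717 FPKM in males against 4.58 ± 1.12 FPKM in females (SD, n = 5 each). The log2 fold change was −0.31 (95% interval −0.68 to 0.07, limma adjusted p = 0.425, exact permutation p = 0.135). Without female 4 it was −0.18 (limma adjusted p = 0.676).

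*Ptgs2* (ENSRNOG00000002525, chromosome 13, 67351087 to 67359335), the inducible form, which the macula densa expresses, was at 2.68, 2.13, 2.25, 1.14 and 1.62 FPKM in males 1 to 5. The females had 1.19, 1.67, 1.27, 1.28 and 0.747 FPKM in the same order. The 3 highest rats were males, and male 4 lay below 4 of the 5 females. The means were 1.97 ± 0.595 FPKM and 1.23 ± 0.330 FPKM, which on the log2 scale is a fold change of −0.62 (95% interval −1.17 to −0.06). Between 52 and 181 reads per rat stood behind these values, and the difference did not pass the test (limma adjusted p = 0.258, exact permutation p = 0.0714). Without male 4 the exact permutation p of *Ptgs2* was 0.0238. Without female 2 the log2 fold change was −0.40 for *Ptgs1* (limma adjusted p = 0.194) and −0.73 for *Ptgs2* (limma adjusted p = 0.152). *Ptgs1* exceeded *Ptgs2* in all 10 rats, by 3.09 ± 1.05 times in males and 3.92 ± 1.31 times in females, and the ranges of this ratio overlapped.

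Of the terminal synthases *Ptgds* was called lower in females, while *Ptges* and *Ptgis* were not called in either direction. Whether the 3 differ from each other in their sex difference was not tested. *Ptgds* (ENSRNOG00000015550, chromosome 3, 2686123 to 2689084) encodes the lipocalin-type synthase of prostaglandin D2, which also carries small lipophilic molecules. In males 1 to 5 it was at 50.9, 74.2, 43.3, 66.2 and 36.2 FPKM. In females 1 to 5 it was at 14.0, 20.2, 20.7, 13.0 and 15.0 FPKM. The lowest male stood well above the highest female, and males spread over a wider range than females. The means were 54.2 ± 15.8 FPKM in males against 16.6 ± 3.61 FPKM in females (SD, n = 5 each), so that females held 30.6% of the male level. The log2 fold change was −1.68 (SE 0.21, 95% interval −2.13 to −1.22, limma adjusted p = 0.00151). The exact permutation p was 0.00794, the smallest possible, and 181 to 1083 reads per rat were counted. Without female 2 the log2 fold change was −1.76 (limma adjusted p = 0.00236).

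*Ptges* (ENSRNOG00000006320, chromosome 3, 9727408 to 9738752), the inducible microsomal synthase of prostaglandin E2, was at 16.5, 16.8, 12.3, 10.7 and 17.2 FPKM in males 1 to 5. The females had 15.6, 23.7, 21.8, 14.9 and 16.1 FPKM in the same order. Females 2 and 3 were above every male, and the other 3 lay between male 3 and male 1. The means were 14.7 ± 2.99 FPKM in males against 18.4 ± 4.02 FPKM in females. The log2 fold change of 0.32 (95% interval −0.06 to 0.71) did not pass the test (limma adjusted p = 0.412, exact permutation p = 0.159). Without female 2 it was 0.23 (limma adjusted p = 0.498), and without male 4 it was 0.22 (limma adjusted p = 0.583).

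*Ptgis* (ENSRNOG00000008245, chromosome 3, 163950777 to 163986059) encodes prostacyclin synthase, an enzyme of vessel walls. It was at 2.41, 1.78, 1.60, 1.09 and 1.89 FPKM in males 1 to 5 and at 1.37, 1.97, 1.503, 0.434 and 0.927 FPKM in females 1 to 5. The sexes overlapped widely, and female 4 was lowest, with 13 reads. The means were 1.75 ± 0.478 FPKM and 1.24 ± 0.584 FPKM, which on the log2 scale is a fold change of −0.56 (95% interval −1.32 to 0.19, limma adjusted p = 0.471, exact permutation p = 0.167). Without female 2 it was −0.76 (limma adjusted p = 0.248), and without female 4 it was −0.27 (limma adjusted p = 0.739).

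Within each rat, the level of *Ptgds* was set against that of *Ptges*, as the 2 enzymes share a substrate. In males 1 to 5 the ratio of *Ptgds* to *Ptges* FPKM was 3.09, 4.42, 3.51, 6.21 and 2.10. In females 1 to 5 it was 0.892, 0.855, 0.946, 0.875 and 0.931. Every male thus had more *Ptgds* than *Ptges* transcript per length and every female had less, with hardly any spread among females (0.900 ± 0.0382, against 3.87 ± 1.55 in males). The ratio follows from the values above and was not tested.

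*Hpgd* (ENSRNOG00000010610, chromosome 16, 37457135 to 37495758), the breakdown enzyme, was at 15.1, 12.0, 14.1, 15.3 and 17.2 FPKM in males 1 to 5. In females 1 to 5 it was at 8.53, 6.60, 6.07, 4.28 and 5.54 FPKM. All 5 females lay below the lowest male, and female 1 came nearest. The means were 14.7 ± 1.89 FPKM in males against 6.20 ± 1.56 FPKM in females (SD, n = 5 each), so that females held 42.1% of the male level. The log2 fold change was −1.26 (SE 0.17, 95% interval −1.62 to −0.90, limma adjusted p = 0.00220). The exact permutation p was 0.00794, and 127 to 529 reads per rat were counted. Without female 2 the log2 fold change was −1.29 (limma adjusted p = 0.00473).

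The ratio of *Ptges* to *Hpgd* sets a gene for making prostaglandin E2 beside one for inactivating it. It was 1.09, 1.40, 0.878, 0.696 and 1.0005 in males 1 to 5 and 1.83, 3.59, 3.59, 3.48 and 2.91 in females 1 to 5. Each female exceeded each male, at 3.08 ± 0.751 against 1.012 ± 0.261. The transcripts give no amount of the prostaglandins themselves, which were not analysed here.

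**Figure D2:**
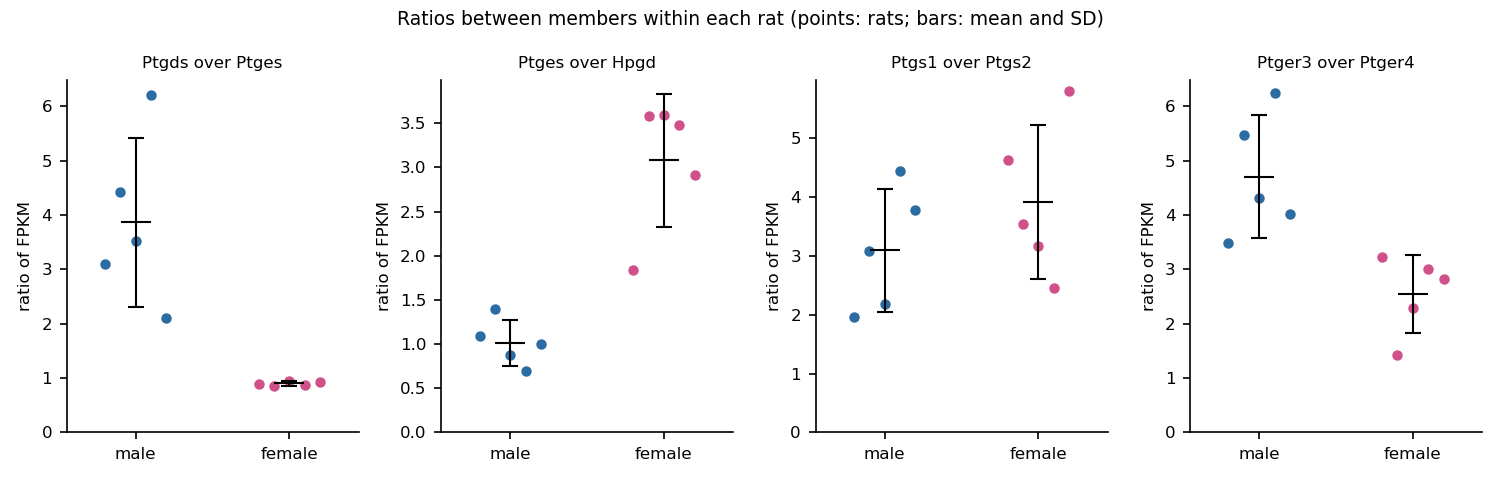
Ratios of FPKM between 2 genes within each rat (vertical axis, from 0), with 1 point per rat and bars for the mean and SD over 5 rats. The sexes are separate for *Ptgds* over *Ptges*, *Ptges* over *Hpgd* and *Ptger3* over *Ptger4*, and overlap for *Ptgs1* over *Ptgs2*.

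Among the receptors of prostaglandin E2 only *Ptger3* was called, and it was the most abundant of the 4 in every rat. *Ptger3* (ENSRNOG00000010325, chromosome 2, 263895241 to 263979698) encodes EP3, which in the thick ascending limb and collecting duct opposes the action of vasopressin. It was at 33.1, 34.4, 34.4, 42.2 and 30.3 FPKM in males 1 to 5. The females had 27.4, 16.2, 23.4, 23.4 and 24.2 FPKM in the same order. The ranges were separate by a small margin, with female 1 just below male 5 and female 2 lowest of all. The means were 34.8 ± 4.43 FPKM in males against 22.9 ± 4.12 FPKM in females (SD, n = 5 each). The log2 fold change was −0.62 (SE 0.14, 95% interval −0.92 to −0.31, limma adjusted p = 0.0435, exact permutation p = 0.00794). Between 464 and 1772 reads per rat were counted.

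The call of *Ptger3* lay close to the threshold. It was lost in 12 of 21 alternative analyses, with limma adjusted p-values of 0.0235 to 0.105 over all 21. Of the 9 that left it called, median-ratio scaling could hardly change the result, since its factor was the same in every library. Leaving out a single library lost it in 8 of 10 cases, the exceptions being females 1 and 2, and the adjusted p was highest, 0.0990, without male 3. Without female 2, the lowest value, the log2 fold change was −0.50 (limma adjusted p = 0.0283). The direction was the same in all 21.

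*Ptger4* (ENSRNOG00000013240, chromosome 2, 54952821 to 54963448), which encodes EP4, was at 9.50, 6.29, 7.96, 6.76 and 7.52 FPKM in males 1 to 5. In females 1 to 5 it was at 8.50, 11.4, 10.2, 7.79 and 8.57 FPKM. All 5 females were above the male mean, but male 1 lay above 3 of them. The means were 7.61 ± 1.24 FPKM and 9.29 ± 1.47 FPKM, and the log2 fold change of 0.29 (95% interval −0.01 to 0.59) did not pass the test (limma adjusted p = 0.343, exact permutation p = 0.0873). Without female 2 it was 0.21 (limma adjusted p = 0.408), and without male 1 the exact permutation p was 0.0317.

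*Ptger2* (ENSRNOG00000050968, chromosome 15, 19338175 to 19350210), which encodes EP2, had the lowest mean of the 10 genes in both sexes. It was at 1.26, 0.714, 0.885, 0.818 and 1.29 FPKM in males 1 to 5 and at 1.004, 0.435, 0.635, 0.577 and 0.513 FPKM in females 1 to 5. Female 1 lay among the males and the other females lay below all males. Only 12 to 38 reads per rat were counted, which limits its precision. The means were 0.994 ± 0.265 FPKM and 0.633 ± 0.220 FPKM, which on the log2 scale is a fold change of −0.59 (95% interval −1.13 to −0.05, limma adjusted p = 0.265, exact permutation p = 0.0556). Without female 2 it was −0.49 (limma adjusted p = 0.308). The exact permutation p was 0.0317 without male 2 and 0.0159 without female 1. Every other omission of 1 library left it above 0.05, at up to 0.111. On the log2 scale, with all 10 rats, the exact permutation p was 0.0476.

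*Ptger1* (ENSRNOG00000004094, chromosome 19, 24800072 to 24803373), which encodes EP1, showed no sex difference that these rats could resolve. It was at 13.8, 11.7, 10.5, 9.72 and 10.03 FPKM in males 1 to 5 and at 10.01, 10.6, 13.9, 9.93 and 9.67 FPKM in females 1 to 5. One rat of each sex, male 1 and female 3, stood above the rest of its group. The means were 11.2 ± 1.67 FPKM and 10.8 ± 1.75 FPKM, and the log2 fold change was −0.04 (limma adjusted p = 0.910, exact permutation p = 0.746). The 95% interval of the log2 fold change was −0.33 to 0.24. Without female 2 it was −0.04 (limma adjusted p = 0.901), and without male 1 it was 0.03, on the other side of 0.

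The makeup of the EP receptor transcripts was described by summing the FPKM of the 4 receptors in each rat. The sum was 57.6, 53.1, 53.7, 59.5 and 49.1 FPKM in males 1 to 5 and 46.9, 38.6, 48.1, 41.7 and 43.0 FPKM in females 1 to 5. Every female was below every male, with male 5 and female 3 almost level. *Ptger3* is the largest part of this sum, so the separation is not a result apart from that of *Ptger3*. *Ptger3* made up 63.7 ± 4.94% of the sum in males and 52.3 ± 6.91% in females, and these ranges overlapped. *Ptger4* made up 11.4% to 16.5% in males and 18.1% to 29.5% in females, with female 2 highest. Without female 2 the highest female share was 21.2%, and the ranges were separate with or without it. *Ptger1* made up 20.5 ± 2.86% in males and 24.8 ± 3.25% in females, and *Ptger2* 1.84 ± 0.559% and 1.43 ± 0.409%. The shares add to the whole, so a lower share of 1 receptor raises those of the others, and none was tested.

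**Figure D3:**
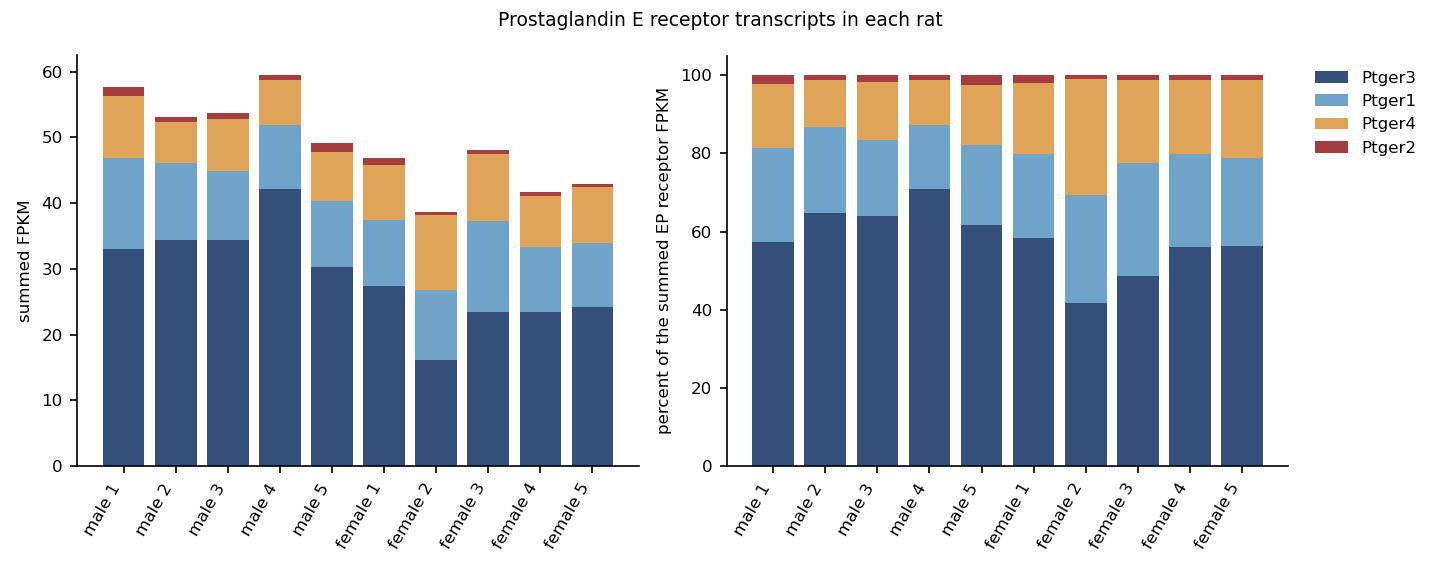
Summed FPKM of the EP receptor genes in each rat (left, vertical axis in FPKM) and the percent of that sum held by each gene (right), as stacked bars for males 1 to 5 and females 1 to 5. *Ptger3* is the largest segment in all 10 rats, the sums are 49.1 to 59.5 FPKM in males against 38.6 to 48.1 FPKM in females, and the *Ptger4* segment is a larger percent in every female than in any male.

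Setting all 10 genes in order by mean FPKM, males ran from *Ptgds* through *Ptger3*, *Hpgd*, *Ptges*, *Ptger1*, *Ptger4*, *Ptgs1*, *Ptgs2* and *Ptgis* to *Ptger2*. Females ran from *Ptger3* through *Ptges*, *Ptgds*, *Ptger1*, *Ptger4*, *Hpgd*, *Ptgs1*, *Ptgis* and *Ptgs2* to *Ptger2*. In males, neighbours in this order had separate ranges only for *Ptger3* above *Hpgd*, *Ptger1* above *Ptger4* and *Ptgs1* above *Ptgs2*. In females this was so only for *Ptgs1* above *Ptgis*, and the ranges of the other neighbours overlapped across rats. Within single rats some of these orders held throughout and others did not. Among the overlapping neighbours, *Ptgds* over *Ptger3*, *Ptges* over *Ptger1* and *Ptgis* over *Ptger2* held in 5 of 5 males. *Ptges* over *Ptgds*, *Ptgds* over *Ptger1*, *Hpgd* over *Ptgs1* and *Ptgs2* over *Ptger2* held in 5 of 5 females. In males *Hpgd* and *Ptges* had nearly equal means, and *Hpgd* was the higher in only 2 of 5. *Ptgds* moved from place 1 in males to place 3 in females and *Hpgd* from place 3 to place 6, while *Ptges* moved from place 4 to place 2, with the male places 3 and 4 set by that small margin.

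The 39 other genes of eicosanoid pathways, held in 2 lists, gave 1 call among 38 tested, against 2.40% over all tested genes. Of 27 genes for prostanoid supply, synthesis, transport, later breakdown and other prostanoid receptors, 26 entries passed the filter on low values. *Pla2g15* alone was called, and the median log2 fold change over the 26 was 0.02. *Ptgdr*, a receptor of prostaglandin D2, and the second of 2 identifiers of *Cbr1* were listed at 0 in all rats. Of 12 genes of the lipoxygenase, leukotriene and epoxide routes none was called by limma, none had an unadjusted limma p under 0.05 and none reached an exact permutation p of 0.05. Over all 17631 tested genes, 2775 had an unadjusted limma p under 0.05 and 14.8% reached that exact permutation p. With so few genes, a count of 0 does not set these routes apart.

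*Pla2g15* encodes a lysosomal phospholipase. It was at 18.2, 16.7, 16.9, 15.7 and 19.3 FPKM in males 1 to 5 and at 12.4, 9.74, 14.4, 13.0 and 12.0 FPKM in females 1 to 5. The ranges were separate, with means of 17.3 ± 1.41 FPKM and 12.3 ± 1.70 FPKM. The log2 fold change was −0.50 (limma adjusted p = 0.0353, exact permutation p = 0.00794), and no gene of the 2 lists was called in 11 of 21 alternative analyses. Among these were 8 of the 10 that left out a library, all but those without female 2 or female 3.

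A further 4 genes of the lists reached an exact permutation p of 0.05 or less without being called. With *Pla2g15* they were 5 of 38, a share no higher than the 14.8% of all genes. *Slco2a1*, which encodes a transporter that takes prostaglandins into cells, was at 7.74, 7.54, 9.26, 8.79 and 5.58 FPKM in males 1 to 5 and at 9.79, 10.9, 10.1, 10.3 and 10.4 FPKM in females 1 to 5. Every female exceeded every male, and the log2 fold change reached 0.42 (limma adjusted p = 0.124, exact permutation p = 0.00794). *Pla2g6*, a calcium-independent phospholipase, was at 13.3 ± 1.24 FPKM in males against 19.3 ± 4.86 FPKM in females (limma adjusted p = 0.137, exact permutation p = 0.0159). *Ptges3*, a co-chaperone also described as a cytosolic prostaglandin E synthase, was at 83.5 ± 8.41 FPKM and 100 ± 12.5 FPKM (limma adjusted p = 0.243, exact permutation p = 0.0397). *Ptgdr2*, the other receptor of prostaglandin D2, had 1 to 5 reads per rat and an exact permutation p of 0.0159 (limma adjusted p = 0.317), with means of 0.157 ± 0.0490 FPKM and 0.0624 ± 0.0240 FPKM.

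The other most abundant genes of each role, apart from those above, overlapped between the sexes. *Ptgr2*, a reductase that acts after *Hpgd*, was at 33.7 ± 4.74 FPKM in males against 36.6 ± 7.61 FPKM in females. *Ptgr1*, its relative, was at 19.3 ± 2.65 FPKM and 26.4 ± 6.52 FPKM (limma adjusted p = 0.240, exact permutation p = 0.0556). *Pla2g12a*, a secreted phospholipase, was at 23.3 ± 2.39 FPKM and 23.9 ± 2.48 FPKM, and *Fam213b*, a prostaglandin F synthase, was at 41.8 ± 7.81 FPKM and 36.3 ± 7.98 FPKM. *Ptgfr*, the prostaglandin F receptor, was at 1.76 ± 0.435 FPKM and 2.16 ± 0.420 FPKM, and *Tbxa2r*, the thromboxane receptor, at 1.91 ± 0.371 FPKM and 2.06 ± 0.401 FPKM. *Abcc4*, an exporter, was at 24.0 ± 5.56 FPKM and 21.3 ± 5.07 FPKM. *Lta4h*, the leukotriene A4 hydrolase, was at 23.1 ± 0.868 FPKM and 23.9 ± 1.48 FPKM. *Alox15b*, a lipoxygenase, ranged in females from 0.279 FPKM in female 4 to 19.2 FPKM in female 2 and in males from 5.73 to 12.7 FPKM.

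**Figure D4:**
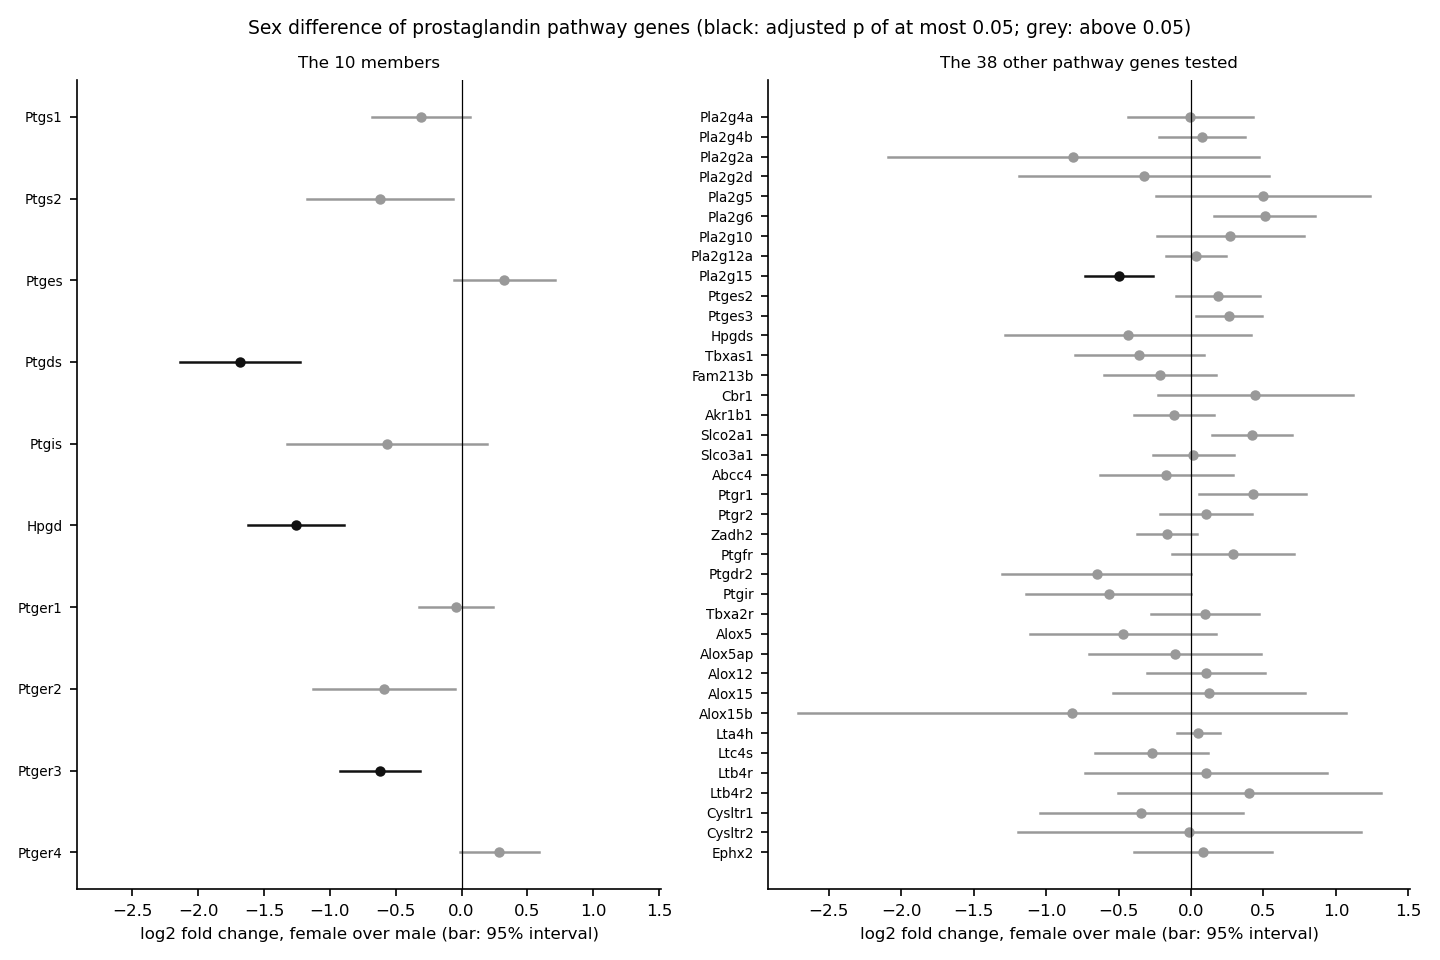
Log2 fold change of females over males with its 95% interval for the 10 genes (left) and the 38 other pathway genes tested (right), with black marking a limma adjusted p of at most 0.05 and grey a higher one. The black intervals are those of *Ptgds*, *Hpgd* and *Ptger3* on the left and *Pla2g15* on the right, and all 4 lie below 0.

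Few markers of other cell types were called, most lists held no call, and no list was tested as a set. For the counts below, 2.40% of all tested genes were called and 5.10% had separate ranges. An exact permutation p of at most 0.05 was reached by 14.8%, and 9032 of 17631 had a log2 fold change below 0. Of 8 markers of fibroblasts, pericytes and smooth muscle, *Col3a1* was called lower in females, at 81.8 ± 13.1 FPKM in males against 39.5 ± 14.9 FPKM in females (limma adjusted p = 0.0477). Their sum was 355 to 457 FPKM in males against 121 to 434 FPKM in females, or at most 293 FPKM without female 2, and none of the 8 was at 0. Of the 8, 7 had a log2 fold change below 0, with a median of −0.54, and *Col1a1* also had separate ranges (28.9 ± 6.12 FPKM in males, 16.2 ± 5.61 FPKM in females, limma adjusted p = 0.0821, exact permutation p = 0.00794). Of 6 principal cell markers of the collecting duct *Avpr2*, the vasopressin receptor, was called higher, at 13.6 ± 1.75 FPKM in males against 18.4 ± 1.21 FPKM in females (limma adjusted p = 0.0469). All 6 had a log2 fold change above 0. The principal cell sum was 178 to 269 FPKM in males against 213 to 303 FPKM in females.

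Of 6 proximal tubule markers *Cubn* was called higher, at 50.0 ± 12.2 FPKM and 81.0 ± 11.9 FPKM (limma adjusted p = 0.0467), and the log2 fold change was above 0 for 4 of the 6 and below 0 for 2. *Slc22a6*, an organic anion transporter, was at 294 ± 55.5 FPKM and 205 ± 46.7 FPKM (limma adjusted p = 0.160, exact permutation p = 0.0159). Of 5 markers of the thick ascending limb and macula densa none was called. The log2 fold change was above 0 for 3 of them and below 0 for 2, the macula densa genes *Nos1* and *Pappa2*. *Nos1* was at 0.579 ± 0.178 FPKM in males against 0.434 ± 0.116 FPKM in females (limma adjusted p = 0.586, exact permutation p = 0.183). *Pappa2* was at 0.292 ± 0.116 FPKM and 0.175 ± 0.0284 FPKM (limma adjusted p = 0.498, exact permutation p = 0.0476). The sum of the 5, most of it *Umod*, was 1003 to 1522 FPKM in males against 1060 to 1693 FPKM in females. Of 7 macrophage and 6 lymphocyte markers none was called, and 6 of the 7 macrophage markers had a log2 fold change below 0. The macrophage sum was 126 to 239 FPKM in males against 62.6 to 148 FPKM in females, and the lymphocyte sum was 7.23 to 21.1 FPKM in males against 2.38 to 23.4 FPKM in females, or at most 9.11 FPKM without female 2. All 6 lymphocyte markers had a log2 fold change below 0, with a median of −1.18. No marker of podocytes, endothelium, medulla or urothelium was called either. All 5 podocyte markers had a log2 fold change above 0. The urothelial *Upk1a* was at 0.0554 to 0.121 FPKM in males, 0.188 FPKM or more in every female and 3.01 FPKM in female 2 (limma adjusted p = 0.213, exact permutation p = 0.00794). The part of cell makeup in the lower *Ptgds*, *Hpgd* and *Ptger3* was not tested.

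The 10 genes were also compared with each other and with all other genes by their variation among rats of the same sex. Each value was taken as its deviation from the mean of its own sex on the log2 scale, over 10 libraries that share sequencing depth and tissue makeup as sources of variation. The results are descriptions. Among the 10, *Ptges* and *Ptgis* varied most alike (r = 0.77), and *Ptges* and *Ptger3* most oppositely (r = −0.77). Both pairs were picked as the extremes of all pairs. Female 2 had the highest *Ptges* and lowest *Ptger3* of all rats, and male 4 the lowest *Ptges* and highest *Ptger3*. The r of pairs among the 10 was not computed without these libraries. *Ptgds* and *Hpgd* did not vary together (r = −0.15), nor *Ptgds* and *Ptger3* (r = −0.03) or *Hpgd* and *Ptger3* (r = 0.02).

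Over 12032 other genes, those most like *Ptgds* were *Zfp36* (r = 0.92), an mRNA decay factor, and *Spry4* (r = 0.91), an inhibitor of growth factor signalling. Those most like *Hpgd* were *Itgb4* (r = 0.98), an epithelial integrin, and *Lbp* (r = 0.98), a binder of lipopolysaccharide. Those most like *Ptger3* were *Rnf24* (r = 0.96) and *Lzts3* (r = 0.95), and those most like *Ptgs1* were the chemokine *Ccl2* (r = 0.97) and the T-cell gene *Cd3g* (r = 0.95). Without the 2 libraries farthest from the median of the member, these r were 0.83 to 0.94. Female 2 was among the libraries left out for *Ptger3* and *Ptgs1*.

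**Figure D5:**
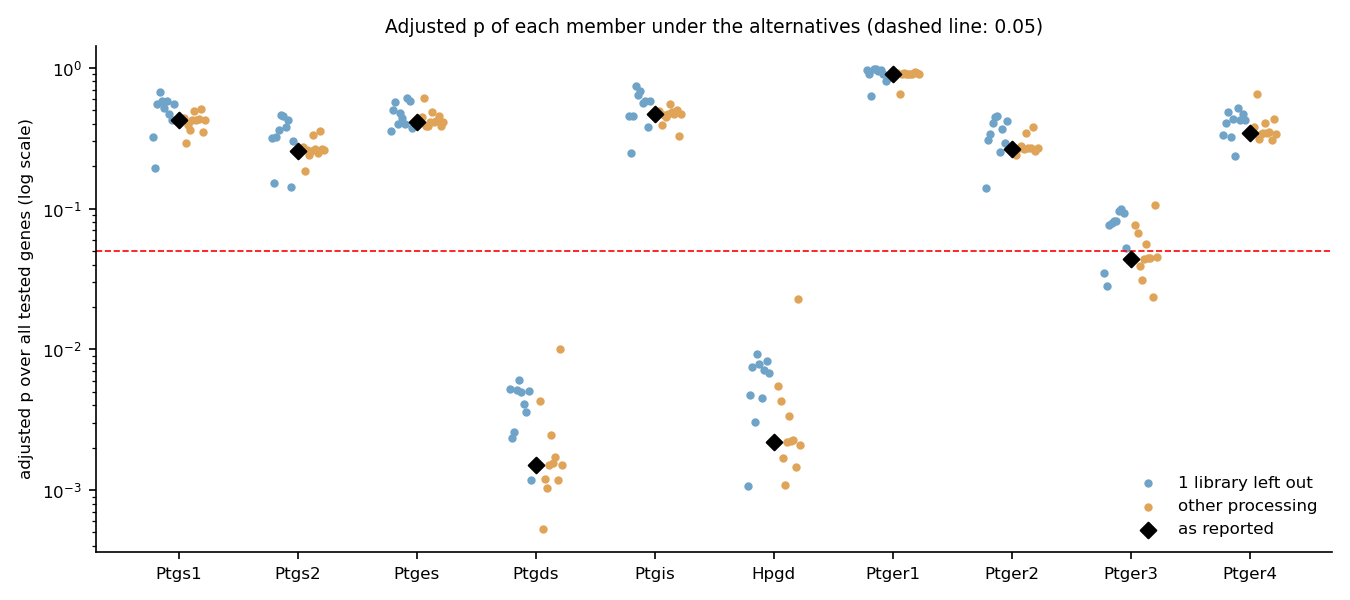
Limma adjusted p over all tested genes (vertical axis, log scale) for each of the 10 genes as reported (diamonds), with 1 library left out (blue) and under other processing (orange), with a dashed line at 0.05. *Ptgds* and *Hpgd* stay below the line throughout, *Ptger3* lies on both sides of it, and the other 7 genes stay above it.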

How the data were processed

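RNA from the renal cortex of PCK rats, 5 of each sex, was grouped by the sex in the labels. The submitters' processing notes name fastp, HISAT2 2.0.5, StringTie 1.3.3b and featureCounts 1.5.0-p3, and the build was Rnor_6.0. The authors deposited 1 table of FPKM for 32545 genes. Whether counting used strand is not given in the sources used here. The value of a single read at each gene's length was used to turn FPKM into reads, which gave whole reads, within 0.05 of a whole number, for 100% of values. The median-ratio factor was 1.01 in every library, so the FPKM were used as deposited. No 2 libraries agreed within sampling noise (lowest chi-square over its degrees of freedom 10.2), and each rat counted as 1 sample by its label.

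Genes whose mean reached 0.1 FPKM were tested with limma 3.58.1 (R 4.3.3, lmFit, then eBayes with trend) as log2(FPKM + 0.1), with Benjamini-Hochberg adjustment over all of them. The exact permutation tests were two-sided, on mean FPKM (Python 3.11.15, scipy 1.17.1). The scripts were tested on simulated data. The alternatives were equal FPKM sums, median-ratio scaling, pseudocounts of 1 and 0.01, a higher filter (mean of 1 FPKM) and none, quantile normalization, eBayes without trend, robust eBayes, a replicate block, the omission of each library and limma-voom on recovered reads. The exact tests were also run on the log2 scale.

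The members and the pathway and marker lists were chosen with earlier results of these data known. Named were all members, pathway genes called or with an exact permutation p up to 0.05, up to 2 of the most abundant pathway genes per role, the 2 genes most like the most abundant member of each role (at a mean of 1 FPKM or more), and markers from lists that moved with a called member. *Ptgr1* and *Alox15b* are among the most abundant of their roles. *Upk2*, *Upk3a*, *Cryab*, *Slc14a2*, *Aqp4*, *Avpr2*, *Cubn*, *Slc22a6*, *Nos1*, *Pappa2*, *Umod* and *Upk1a* were named after their values were seen.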

Additional observations from a re-analysis of the deposited data

Results flagged for a closer look

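In 5 of 88 groups of 5 rats examined, 1 rat lay so far from the others that its gap to the nearest, divided by the range of the group, exceeded Dixon's 95% critical value of 0.71. Chance alone gives this in about 1 group of 20. *Ptger1* was at 13.9 FPKM in female 3, with the next female at 10.6 FPKM. *Ptger2* made up 2.14% of the summed EP receptor FPKM in female 1, with the next female at 1.38%. *Ptger4* made up 29.5% of that sum in female 2, with the next female at 21.2%. The markers of the thick ascending limb and macula densa summed to 1522 FPKM in male 5, with the next male at 1056 FPKM. The urothelial markers summed to 12.8 FPKM in female 2, with the next female at 0.763 FPKM, and this is also the library with the highest mitochondrial share.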

How the results depend on the processing

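*Ptgds* and *Hpgd* were called lower in females in all 21 alternatives, with log2 fold changes of −1.81 to −1.55 and −1.38 to −1.14. Of the 10 genes, 2 or 3 were called in each alternative, and *Ptger3* decided which. Leaving out 1 library at a time gave 266 to 550 genes called over all genes, against 424, and 0 or 1 pathway gene called. The count was 266 without female 5, 278 without male 3 and 282 without male 2. No pathway gene was called under eBayes without trend, equal FPKM sums or the replicate block, a count of 0. A pseudocount of 1 left 137 genes past both the adjusted p and the fold change, against 232. It also drew *Ptger2* to −0.29, *Ptgis* to −0.32 and *Ptgs2* to −0.40, none of them called. Median-ratio scaling left every count of calls unchanged and hardly moved the fold changes, since its factor was the same in every library.

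The replicate block gave 231 genes called and left *Ptger3* at a limma adjusted p of 0.105. Rats with the same number did not deviate together (correlations of −0.10 to 0.07 over 5 pairs, and in 1 of the 5 the own number correlated best), so the numbers were not taken to pair the rats. Equal FPKM sums moved the median of all genes to −0.12 on the log2 scale, and gave 235 genes lower and 130 higher, against 201 and 223. *Ptgds* and *Hpgd* stayed called there, while *Ptges* moved to 0.20, *Ptger4* to 0.17 and *Ptger1* to −0.17, and *Ptger3*, at −0.74, was no longer called (limma adjusted p = 0.0670). Under it 5 of the 10 genes reached an exact permutation p of 0.05, with *Ptgs1* (p = 0.0397) and *Ptgs2* (p = 0.0317) added, against 14.6% of all genes, of which 2029 were lower in females and 546 higher. Exact tests on the log2 scale gave 4 of the 10, with *Ptger2* added, against 14.9% of all genes. Leaving out 1 library moved *Ptger1* between −0.14 and 0.034 on the log2 scale and between −1.10 and 0.328 FPKM, and it was above 0 only without male 1. The cause was not tested. *Ptger2* was below the filter at a mean of 1 FPKM and was not tested there.

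Of the 10 genes depth limits *Ptger2* and *Ptgis* most, with 12 to 38 and 13 to 63 reads per rat. No rat of another strain, other region of the kidney, protein or prostaglandin was analysed here.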
